A study of Mus musculus with 6 samples.

Results

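The genes described here were 8 CC chemokines made by myeloid cells (*Ccl2*, *Ccl3*, *Ccl4*, *Ccl5*, *Ccl6*, *Ccl7*, *Ccl9* and *Ccl12*) and 2 chemokine receptors (*Ccr1* and *Ccr2*), 10 of the 16579 genes in the table. They were taken by symbol, and the list was drawn up with the genotype contrast of these libraries already known, so their differences between genotypes are given as a description: no p is given for them, and counts past a threshold support nothing. RNA was sequenced from cells labelled as megakaryocytes (MKs), the platelet-forming cells. The cells had been sorted by flow cytometry from marrow of mice 3 months old. In both genotypes *Becn1*, which encodes the autophagy protein Beclin 1, was flanked by loxP sites. The 3 *Becn1*f/f libraries carried no Cre, and 3 more, labelled *Becn1*f/f;*Pf4-iCre* and called Cre-labelled below, also carried a Cre transgene driven by the *Pf4* promoter, which is active in the megakaryocytic lineage. The labels number the libraries but do not say whether each came from 1 mouse or from a pool, so the spread between libraries may be in part technical.

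CC chemokines are small secreted proteins, named for a pair of adjacent cysteines, that bind G protein-coupled receptors on leukocytes and direct their migration. Ccl2, Ccl7 and Ccl12 are ligands of Ccr2, through which inflammatory monocytes leave the bone marrow for the blood. Ccl3, Ccl5, Ccl6 and Ccl9 are ligands of Ccr1. All 8 chemokine genes lie in 1 cluster on mouse chromosome 11, and both receptor genes lie in another on chromosome 9.

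*Becn1* itself differed little between the genotypes. It stood at 128, 109 and 119 CPM (counts scaled to a common library size by the TMM method) in *Becn1*f/f libraries 1, 2 and 3, and at 106, 104 and 109.8 CPM in the Cre-labelled libraries. The groups overlapped, with a log2 fold change of -0.15 (SE 0.12, adjusted p = 0.94, edgeR quasi-likelihood test with Benjamini-Hochberg adjustment), so the label is used below only as a label. The paper reports significantly lower *Becn1* mRNA by quantitative PCR in CD41-positive marrow cells of the Cre genotype, and no detectable Becn1 protein in their platelets. Counts for a whole gene do not show which exons the reads cover. The libraries held 16467560 to 17156728 counts. Megakaryocyte transcripts were scarce: the 16 MK and platelet markers summed to 287 to 397 CPM in *Becn1*f/f and 300.4 to 379 CPM in the other libraries, while 12 monocyte markers summed to 8370 to 9248 CPM and 10832 to 13877 CPM. Most of the monocyte sum came from *Fn1*, *F13a1*, *Nr4a1* and *Klf4*. The other 8 monocyte markers summed to 1181 to 1635 CPM in *Becn1*f/f and 1624 to 1902 CPM in the other libraries. The defining platelet gene *Pf4* was at 3.76, 6.73 and 4.12 CPM and then 3.06, 2.11 and 2.08 CPM, and *Itga2b*, which encodes the sorted antigen CD41, was at 148 to 187 CPM and 142 to 176 CPM. In bulk RNA, fewer cells of a type and less RNA per cell cannot be told apart.

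The sequences upstream of 4 of the chemokine genes are shown, since the RefSeq table used here held these 4 of the 8, and they differ widely in level and in the genotype contrast: *Ccl9*, whose groups did not overlap, its neighbour *Ccl6*, whose groups did, *Ccl3*, the highest of the 10 genes per transcript length, and *Ccl12*, which was at or next to 0 counts. Each run is the 200 bases ending just before the RefSeq start site (build GRCm38.p6), 5′ to 3′ on the gene's strand. Capitals mark matches on either strand to the NF-kB consensus, to the AP-1 motif TGANTCA or to the TATA box TATAAA.
*Ccl9*, chr11:83578637-83578836, minus strand: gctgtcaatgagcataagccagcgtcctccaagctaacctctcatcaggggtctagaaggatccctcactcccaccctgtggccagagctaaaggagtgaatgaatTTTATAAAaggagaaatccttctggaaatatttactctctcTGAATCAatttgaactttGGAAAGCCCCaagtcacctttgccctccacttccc
*Ccl6*, chr11:83593088-83593287, minus strand: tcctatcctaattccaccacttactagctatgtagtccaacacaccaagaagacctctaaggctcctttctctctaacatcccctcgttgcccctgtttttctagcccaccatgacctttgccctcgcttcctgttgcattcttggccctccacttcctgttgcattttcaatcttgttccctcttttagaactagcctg
*Ccl3*, chr11:83649379-83649578, minus strand: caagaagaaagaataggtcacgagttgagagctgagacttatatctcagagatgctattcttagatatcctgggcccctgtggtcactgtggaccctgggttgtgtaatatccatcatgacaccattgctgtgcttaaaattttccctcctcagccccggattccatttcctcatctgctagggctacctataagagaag
*Ccl12*, chr11:82101645-82101844, plus strand: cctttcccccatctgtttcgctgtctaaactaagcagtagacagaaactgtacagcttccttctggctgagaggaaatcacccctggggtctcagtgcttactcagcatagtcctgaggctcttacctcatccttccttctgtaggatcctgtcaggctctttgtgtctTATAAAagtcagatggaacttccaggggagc

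Promoters of 6 of the 10 genes were matched, and each was searched from 250 bases before to 50 bases after its start site. The NF-kB consensus was present in 1 of these 6, *Ccl9*, where it ran from -35 to -26, and in 4.505% of all 32851 promoters of that length. The AP-1 motif was also present only in *Ccl9* among the 6, from -53 to -47, against 7.808% of all promoters. The TATA box, a motif added after the data were seen, was present in *Ccl9* and *Ccl12*, in the latter from -31 to -26, and in 13.62% of all promoters. In *Ccl9* the TATA letters lie on both strands, from -94 to -89 and from -92 to -87, and overlap, which gives the run of capitals TTTATAAA. A further match in *Ccl9*, from -224 to -219, lies before the printed bases. A glucocorticoid receptor half-site (AGAACA) was in none of the 6 windows and in 18.97% of all promoters. A match describes letters and not a bound site. *Ccl9* and *Ccl12* both held TATA letters, at unlike distances from the start site. Whether a motif goes with the level of its gene was not tested.

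Of the 10 genes, 5, *Ccl2*, *Ccl3*, *Ccl4*, *Ccl9* and *Ccr2*, were higher in every Cre-labelled library than in every *Becn1*f/f library, as 5.42% of all 12256 tested genes were, and none was lower without overlap, as 5.18% of all tested genes were. The difference was widest in *Ccl2*, whose fitted level was 2.09-fold higher, and the others of these 5 were 1.30-fold to 1.498-fold higher. *Ccl6*, *Ccl5* and *Ccr1* overlapped between genotypes, *Ccl7* was higher on average but rested on few reads, and *Ccl12* was not measurable. The plot of CPM in each library shows the 10 genes side by side.

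**Figure D1:**
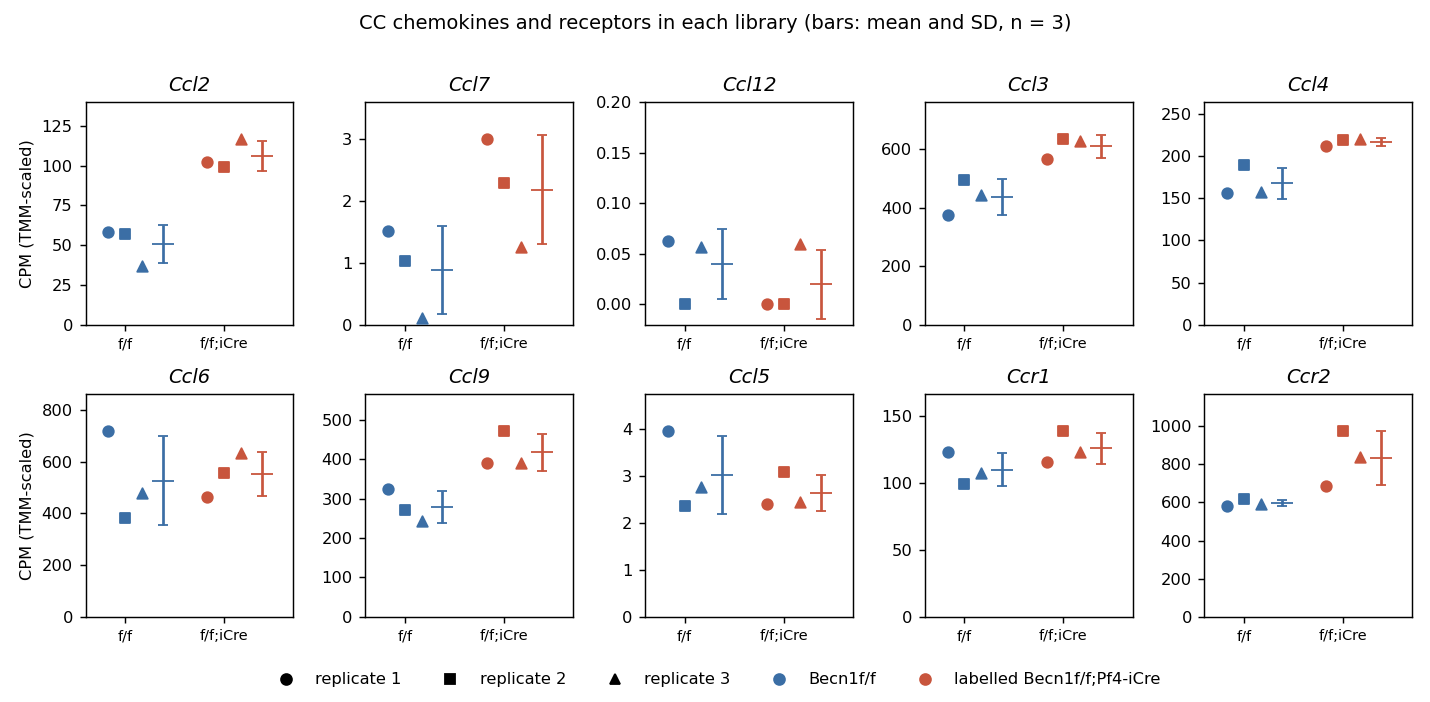
TMM-scaled CPM (y axes, linear, a separate scale for each gene) of the 10 CC chemokine and receptor genes in the 3 Becn1f/f libraries (blue) and the 3 Cre-labelled libraries (red). Each symbol is 1 library and bars are the mean and SD. The red points lie above all blue points for Ccl2, Ccl3, Ccl4, Ccl9 and Ccr2, and Ccl12 had at most 1 count in any library.

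Among the ligands of Ccr2, *Ccl2*, the main attractant of monocytes, was at 58.3, 56.6 and 36.7 CPM in *Becn1*f/f libraries 1, 2 and 3 and at 102, 99.0 and 117 CPM in the Cre-labelled libraries. The groups were well apart, and the lowest value was that of *Becn1*f/f library 3. The means were 50.6 ± 12 and 106 ± 9.41 CPM (SD, n = 3), which gave a log2 fold change of 1.07 (SE 0.18). Leaving out 1 library at a time kept this value between 0.88 and 1.19.

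*Ccl7*, the next gene on the chromosome and a close relative of *Ccl2*, was detected with 24, 18 and 2 counts in *Becn1*f/f and 50, 38 and 21 counts in the other libraries. The groups overlapped, since *Becn1*f/f library 1 exceeded the lowest library of the other group, and *Becn1*f/f library 3 lay below the floor of 3 counts. The means were 0.884 ± 0.708 and 2.18 ± 0.880 CPM (SD, n = 3), with a log2 fold change of 1.31 (SE 0.56). The fold change depended on that 1 library, falling to 0.78 without it, and reached 1.92 without *Becn1*f/f library 1. *Ccl12*, a mouse ligand of Ccr2, had 1, 0 and 1 counts and then 0, 0 and 1 counts. All 6 libraries were under the floor of 3 counts, 0.169 to 0.188 CPM, so no fold change was given. *Ccl12* was the only one of the 10 genes that did not pass the filter on low counts.

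*Ccl3* and *Ccl4*, the macrophage inflammatory proteins that attract monocytes and T cells, were the 2 chemokines with the highest level per transcript length in the Cre-labelled libraries. *Ccl3* was at 374, 496 and 443 CPM in *Becn1*f/f and at 566, 635 and 631 CPM in the other libraries. The groups did not overlap, and the means of 438 ± 61.2 and 611 ± 38.8 CPM (SD, n = 3) gave a log2 fold change of 0.48 (SE 0.14).

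*Ccl4* was at 157, 189 and 157 CPM and then at 212, 220.0 and 220.4 CPM. Library 2 was the highest of the *Becn1*f/f libraries for both genes, and again no library of 1 genotype reached the other. The *Ccl4* means were 168 ± 18.7 and 218 ± 4.66 CPM (SD, n = 3), a log2 fold change of 0.37 (SE 0.13). The RefSeq models of *Ccl3* and *Ccl4* overlap when taken from gene start to gene end, introns included. Whether their exons overlap was not examined, and whether the counting used strand is not given in the sources used here. If exons overlap, reads there may not be assignable to 1 gene. On the transcript strand, 0 of the 50-base stretches of either gene occur in another gene. The ratio of *Ccl3* to *Ccl4* on the FPKM scale was 1.73 to 2.06 in *Becn1*f/f and 1.97 to 2.09 in the other libraries, and these ranges overlapped.

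*Ccl9* and *Ccl6* are adjacent genes for Ccr1 ligands that myeloid cells express at rest. *Ccl9* was at 324, 270.1 and 243 CPM in *Becn1*f/f and at 390.0, 472 and 392 CPM in the Cre-labelled libraries. The groups did not overlap, with means of 279 ± 41.5 and 418 ± 46.6 CPM (SD, n = 3) and a log2 fold change of 0.58 (SE 0.15). Its fold change of 1.498 lay just under the 1.5 used as a threshold. About 2.0% of the 50-base stretches of *Ccl9* transcripts also occur in another gene.

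*Ccl6* did not follow its neighbour. It was at 719, 383 and 480.0 CPM in *Becn1*f/f and at 466, 558 and 636 CPM in the other libraries. The groups overlapped widely, because *Becn1*f/f library 1 was the highest of all 6 and library 2 the lowest. The means were 527 ± 173 and 553 ± 85.4 CPM (SD, n = 3), and the log2 fold change of 0.07 (SE 0.21) ran from -0.11 to 0.37 when 1 library at a time was left out. The ratio of *Ccl6* to *Ccl9* on the FPKM scale was 3.39 to 5.37 in *Becn1*f/f and 2.85 to 3.93 in the other libraries. *Becn1*f/f library 1 also had the highest sums of neutrophil markers and of eosinophil, basophil and mast cell markers, at 17673 and 9163 CPM. *Becn1*f/f library 2, the lowest for *Ccl6*, was not the lowest in either sum. The part of these cells in the *Ccl6* values was not tested.

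*Ccl5*, a chemokine made mostly by T and NK cells and by platelets, was at 3.95, 2.36 and 2.77 CPM in *Becn1*f/f and at 2.40, 3.08 and 2.43 CPM in the other libraries. The groups overlapped, and the highest value was that of *Becn1*f/f library 1. It was the only 1 of the 9 tested members with a negative log2 fold change, -0.19 (SE 0.27), which became 0.05 without that library. The 15 T and NK cell markers in the table summed to 104 to 166 CPM and 116 to 131 CPM, and *Becn1*f/f library 1 was also the highest there. In that library *Gzmb* and *Nkg7* were the largest parts, at 67.2 and 58.6 CPM. *Cd3d*, *Gzma* and *Prf1* were also highest in that library. *Cd3e*, *Cd3g*, *Cd4*, *Cd8a*, *Cd8b1*, *Lck*, *Ncr1*, *Klrb1c* and *Eomes* were highest in *Becn1*f/f library 3, and *Il7r* in library 2 of the Cre-labelled group.

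Of the receptors, *Ccr2* was at 584, 617 and 591 CPM in *Becn1*f/f and at 689, 974 and 838 CPM in the Cre-labelled libraries. The *Becn1*f/f libraries lay close together, and the other 3 were all higher but spread more widely. The means were 597 ± 17.4 and 834 ± 143 CPM (SD, n = 3), a log2 fold change of 0.48 (SE 0.15). This value was 0.35 without library 2 of the Cre-labelled group, and 0.31 with offsets for GC content and transcript length. Of the 50-base stretches of *Ccr2* transcripts, 2.27% also occur in another gene.

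*Ccr1*, the receptor of Ccl3, Ccl5, Ccl6 and Ccl9, was at 123, 98.7 and 107 CPM and then at 116, 138 and 123 CPM. The groups overlapped, with means of 109.5 ± 12.4 and 125 ± 11.6 CPM (SD, n = 3) and a log2 fold change of 0.20 (SE 0.14).

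Of the genes tested, 8 of 9 had a positive log2 fold change and 1 a negative, with a median of 0.48. Over all 12256 tested genes 45.52% were positive and the median was -0.02. The thresholds of a fold change of at least 1.5 and an unadjusted P under 0.05 were passed by *Ccl2* and *Ccl7*, 2 of the 9, and by 1.36% of all tested genes in that direction. None of the 9 passed them in the other direction, as 0.938% of all genes did (2.3% in either direction). These shares are given as background only, since the list was chosen on this contrast. At an adjusted p under 0.05 in edgeR there were 5 genes in the table, 0.0408% of those tested, and none was a member. Without *Becn1*f/f library 3, or without library 2 of the Cre-labelled group, *Ccl2* alone passed the thresholds. *Ccl2*, *Ccl9* and *Ccr2* passed, and *Ccl7* did not, without library 1 of the Cre-labelled group. *Ccl2*, *Ccl7* and *Ccl9* passed without *Becn1*f/f library 1 or without library 3 of the other group. *Ccl7* was thus lost in 3 of the 6 fits that left out 1 library.

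**Figure D2:**
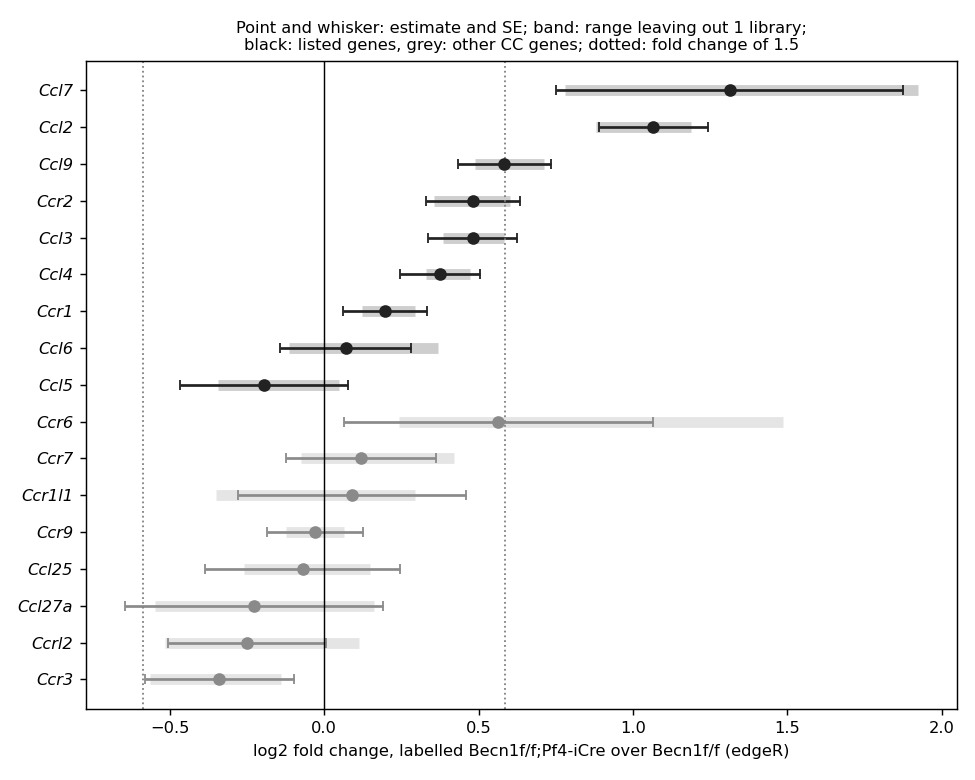
Log2 fold change (x axis, labelled Becn1f/f;Pf4-iCre over Becn1f/f) from edgeR for the 9 tested CC chemokine and receptor genes (black) and 8 other tested CC genes (grey). Whiskers are 1 SE, bands are the range when 1 library at a time is left out, and dotted lines mark a 1.5-fold difference. Only Ccl2 and Ccl7 have estimates past the right-hand dotted line, with Ccl9 just short of it.

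Levels of different genes were compared per transcript length, in FPKM, which scales fragments by transcript length and library size. In *Becn1*f/f the order of mean levels was *Ccl3* at 929 ± 131, *Ccl4* at 487 ± 46.0, *Ccl6* at 472 ± 144, *Ccr2* at 181 ± 9.13, *Ccl9* at 104 ± 12.1, *Ccl2* at 103 ± 22.7, *Ccr1* at 43.7 ± 3.92, *Ccl5* at 14.0 ± 4.09 and *Ccl7* at 1.81 ± 1.44 FPKM (SD, n = 3). *Ccl4* with *Ccl6*, *Ccl9* with *Ccl2*, and *Ccl7* with *Ccl12* overlapped in their 3 values, and the other neighbours in this order did not. In the Cre-labelled libraries the levels were 1292 ± 140.5 for *Ccl3*, 631 ± 49.5 for *Ccl4*, 494 ± 87.8 for *Ccl6*, 250.01 ± 47.8 for *Ccr2*, 216 ± 23.8 for *Ccl2*, 155 ± 19.8 for *Ccl9*, 49.7 ± 5.60 for *Ccr1*, 12.2 ± 2.48 for *Ccl5* and 4.45 ± 1.65 FPKM for *Ccl7*. Here only *Ccr2* and *Ccl2* overlapped among neighbours, and *Ccl2* stood above *Ccl9* in place of level with it.

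The total of the 8 chemokines and the share of *Ccl2* in it were both higher in the Cre-labelled libraries. The summed level was 2057 to 2154 FPKM in *Becn1*f/f and 2457 to 2993 FPKM in the other libraries, without overlap. *Ccl3*, *Ccl4*, *Ccl6* and *Ccl9* together made up 93.4% to 95.6% of this sum and then 91.3% to 92.3%. The share of *Ccl2* was 5.57%, 5.34% and 3.76% in *Becn1*f/f and 8.03%, 7.04% and 8.12% in the other libraries. It was the only 1 of the 8 chemokines whose own share did not overlap between genotypes. All 10 genes together took 0.213% to 0.227% and 0.248% to 0.312% of all counts.

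**Figure D3:**
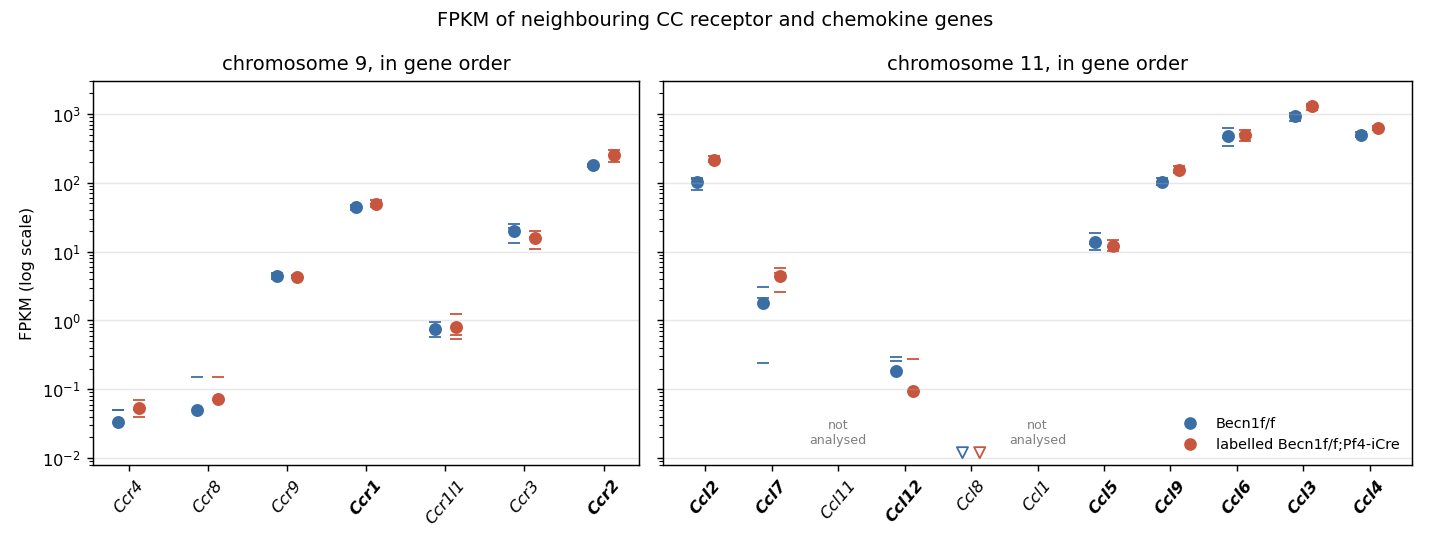
FPKM (y axis, log scale) of neighbouring CC genes on chromosomes 9 and 11, in gene order along the x axis (not to distance). Circles are the mean of 3 libraries, ticks are single libraries above 0, bold names are the 10 genes described, and open triangles mark a gene at 0 in every library. Ccl9, Ccl6, Ccl3 and Ccl4 stand together at 104 to 929 FPKM in Becn1f/f, while Ccl12, a few genes from Ccl2, is near the bottom of the scale.

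Level and place in the cluster went together only in part. The 4 genes at the end of the chromosome 11 cluster, *Ccl9*, *Ccl6*, *Ccl3* and *Ccl4*, were all above 100 FPKM on average in both genotypes. *Ccl2* stood beside genes with almost no reads: *Ccl7* had at most 50 counts, *Ccl12* at most 1, and *Ccl8* none in any library. On chromosome 9, *Ccr1* and *Ccr2* were separated by *Ccr1l1*, a *Ccr1* relative at 0.750 and 0.793 FPKM, and by *Ccr3*, the eosinophil receptor, at 20.2 and 15.8 FPKM.

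Of 26 other CC chemokines and receptors listed, 22 were in the table and 9 passed the filter on low counts. None of the 9 passed the thresholds in edgeR in either direction, as 2.3% of all tested genes did, and their median log2 fold change was -0.03. At an unadjusted P under 0.05 there was 1 gene in edgeR and in DESeq2 and 0 in limma on log2(FPKM + 1), against 6.31% of all tested genes in edgeR. The receptors *Ccr3*, *Ccr6*, *Ccr7*, *Ccr9*, *Ccr1l1* and *Ccrl2* had log2 fold changes of -0.34, 0.56, 0.12, -0.03, 0.09 and -0.25, and the epithelial chemokines *Ccl25* and *Ccl27a* of -0.07 and -0.23. In all 9 the groups overlapped, where 5.42% of all tested genes were higher and 5.18% lower without overlap.

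All 24 listed genes that carry or limit signals of chemokine receptors were tested. Of these, 1 passed the thresholds and was higher and none was lower, where 1.36% and 0.938% of all tested genes were, and the median log2 fold change was -0.02. The 1 gene was *Rgs1*, which encodes a GTPase-activating protein that damps chemokine receptor signals, at 248, 214 and 247 CPM and then 288, 381 and 442 CPM. Its groups did not overlap, and the log2 fold change was 0.65 (SE 0.16), with an adjusted p = 0.32 in edgeR. It no longer passed without *Becn1*f/f library 2, without library 3 of the other group, or with GC and length offsets. The genes with the highest CPM averaged over both genotypes were the inhibitory G protein subunit *Gnai2*, the GTPase *Rac2* and the receptor kinase *Grk2*, with log2 fold changes of -0.09, -0.23 and -0.14. In the Cre-labelled libraries alone *Rgs2*, a relative of *Rgs1* named after its value was seen, was above *Rac2* and *Grk2* at 722 CPM, with a log2 fold change of 0.38 (adjusted p = 0.74, edgeR).

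Of 33 cytokines, sensors, NF-kB components and feedback genes that induce chemokines or limit their mRNA, 31 were tested. Of these, 1 passed the thresholds and was higher and none was lower, where 1.36% and 0.938% of all tested genes were. The median log2 fold change was -0.04. The most abundant were *Tnfaip3* and *Zfp36*, inhibitors of NF-kB signalling and of chemokine mRNA stability, and the phosphatase gene *Dusp1*, with log2 fold changes of 0.06, 0.25 and 0.54. *Il1b*, an inducer of *Ccl2*, and *Il1rn*, which encodes the antagonist of its receptor, had log2 fold changes of -0.52 and -0.53 (adjusted p = 0.43 and 0.76, edgeR). Both were lower without overlap, as 5.18% of all tested genes were, and are named after their values were seen. Another 2 of the 31 were higher without overlap, as 5.42% of all tested genes were.

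Counts and sums of cell type markers are given beside the chemokine values. Of the 12 monocyte markers 11 had a positive log2 fold change, 2 passed the thresholds (*Cx3cr1* and *Klf4*), 6 were higher without overlap, and the median was 0.48. *Klf4* and *Nr4a1* are also on the list of immediate-early genes, and this list too was chosen with earlier results known. Over all tested genes 45.52% were positive, 1.36% passed the thresholds and were higher, and 5.42% were higher without overlap. *Fn1* and *F13a1*, the most abundant of them, had log2 fold changes of 0.53 and 0.39, and *Ly6c2*, which marks inflammatory monocytes, of 0.09. Of 13 tested macrophage markers 12 were positive and 4 passed the thresholds, among them *Mrc1* at 1.26 (SE 0.19, adjusted p = 0.057, edgeR), and their sum was 817 to 874 CPM and 891 to 1097 CPM. *Csf1r*, *Adgre1* and *Cd68* had means of 431, 188 and 103 CPM in *Becn1*f/f and 516, 188 and 114 CPM in the other libraries, while *Marco* and *Timd4* were at or near 0 in all libraries.

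Set against the summed level of the 10 monocyte markers that are not immediate-early genes, which was 6646 to 7889 CPM in *Becn1*f/f and 9153 to 11372 CPM in the other libraries, *Ccl2* remained apart between genotypes while *Ccl3*, *Ccl4*, *Ccl9* and *Ccr2* overlapped. *Ccl2* was at 8.77, 7.18 and 4.72 per 1000 CPM of those markers in *Becn1*f/f and at 8.97, 9.78 and 12.7 in the other libraries. These values did not overlap, although *Becn1*f/f library 1 and library 1 of the other group were nearly level. *Ccl3* was at 56.3 to 62.9 and 49.8 to 68.9, *Ccl4* at 20.2 to 24.0 and 18.7 to 24.1, *Ccl9* at 31.1 to 48.8 and 34.3 to 46.6, and *Ccr2* at 75.9 to 87.9 and 60.6 to 96.3, all with overlap. On this scale the mean log2 difference was 0.63 for *Ccl2*, 0.03 for *Ccl3*, -0.08 for *Ccl4*, 0.13 for *Ccl9* and 0.01 for *Ccr2*. It was 1.07 for *Ccl7*, -0.35 for *Ccl6*, -0.62 for *Ccl5* and -0.26 for *Ccr1*. *Fn1* alone made up 54.5% to 62.5% of the marker sum, and *Fn1* and *F13a1* together 78.6% to 84.8%. With both left out the sum of the other 8 markers overlapped between genotypes, at 1181 to 1635 and 1624 to 1902 CPM. *Ccl2* then remained apart, with a log2 difference of 0.80, and *Ccl3*, *Ccl4*, *Ccl9* and *Ccr2* overlapped, with 0.19, 0.09, 0.29 and 0.17. Both scales were added after the data were seen, and no scale was made from markers of neutrophils or of other cell types. Whether the monocyte share or the level per cell differed cannot be told apart.

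**Figure D4:**
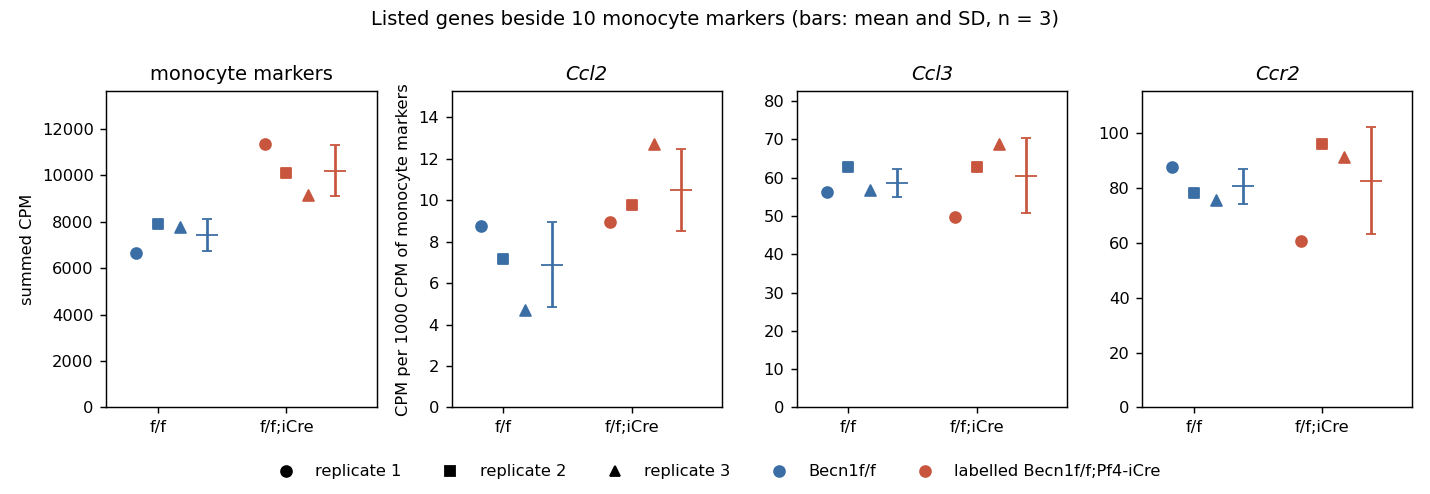
Summed TMM-scaled CPM of 10 monocyte markers (left) and the level of Ccl2, Ccl3 and Ccr2 per 1000 CPM of those markers (y axes, linear) in the 3 Becn1f/f libraries (blue) and the 3 Cre-labelled libraries (red). Symbols are libraries and bars are the mean and SD. The marker sum and the Ccl2 ratio do not overlap between genotypes, while the Ccl3 and Ccr2 ratios do.

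Immediate-early genes, which respond within minutes to stimuli and to cell handling, were mostly higher in the Cre-labelled libraries. Of 22 tested 20 had a positive log2 fold change, with a median of 0.29, and their sum was 13382 to 14429 CPM in *Becn1*f/f and 16025 to 19349 CPM in the other libraries. Only *Klf4* passed the thresholds, at 0.67 (SE 0.15, adjusted p = 0.17, edgeR), and *Fos*, *Fosb* and *Jun*, the most abundant, had log2 fold changes of 0.57, 0.18 and 0.17. In the full fit 45.52% of all tested genes were positive and 1.36% passed the thresholds and were higher. Without any 1 library, 3 to 5 of the 22 passed, where 133 to 267 of all genes passed and were higher. Neutrophil markers lay the other way, with 15 of 16 negative, 1 past the thresholds, a median of -0.42 and sums of 12583 to 17673 CPM and 9766 to 13107 CPM. All 13 tested erythroid markers were negative, 6 of them past the thresholds where 0.938% of all tested genes were lower, with a median of -0.64 and sums of 654 to 981 CPM and 511 to 651 CPM. The sums of B cell markers were 204 to 351 and 209 to 268 CPM, those of eosinophil, basophil and mast cell markers 4878 to 9163 and 3970 to 5695 CPM, and those of endothelial and stromal markers 127 to 146 and 118 to 139 CPM. The part of these groups in the chemokine values was not tested.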

How the data were processed

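RNA from sorted bone marrow cells labelled as MKs was measured in 6 libraries, 3 for each genotype, grouped by the sample labels. The authors discarded poor reads, aligned the others to the genome using HISAT, and deposited an estimated count and an FPKM value for each gene. The submitters' processing notes also name Bowtie2 and the builds GRCm39 and mm39. The counting tool is not given in the sources used here. The deposited estimated counts are not normalized and are not whole for 10.3% to 11.3% of genes. The deposited FPKM values were scaled by the authors for length and library size. Another 16 per-sample columns, 4 of them from 1 library that matched no sample, and 8 columns of group means were not used.

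Counts were rounded and fitted in R 4.3.3 using edgeR 4.0.16 (its quasi-likelihood test, TMM scaling, filterByExpr, genotype only), which left 12256 genes. A gene was past the thresholds with a fold change of at least 1.5 and an unadjusted P under 0.05, the study's own criteria, and Benjamini-Hochberg adjusted p-values are given beside. The script was tested on simulated data. DESeq2 1.42.0 and limma 3.58.1 on log2(FPKM + 1) were alternatives. The 10 genes and all lists were chosen with earlier results of these data known, and the levels relative to monocyte markers and the TATA box were added after the data were seen. Named genes were all 10 members, every other CC gene that passed the filter, and, of the signalling, inducer and immediate-early lists, genes past the thresholds and the 3 most abundant. A few genes that this rule names are not reported here. The 2 genes most like *Ccl2*, *Ccl7*, *Ccr2* and *Ccl5* over the 6 libraries were also named, and marker lists were given by sums and counts. Promoters came from RefSeq (GRCm38.p6), another build than the counts, so gene coordinates of the counts are not given. P-values set the difference between genotypes against the spread between libraries, which may be in part technical, and floors of 3 counts cover counting error only.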

Additional observations from a re-analysis of the deposited data

How the results depend on the processing

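Over all settings the log2 fold changes of the 9 tested genes gave 170 values. Of the 151 for the 8 genes that were positive, 144 stayed positive. The exceptions were *Ccl6* without *Becn1*f/f library 2 (-0.11), without library 3 of the other group (-0.04) and relative to the monocyte markers with and without *Fn1* and *F13a1* (-0.35 and -0.19), *Ccr1* relative to the same sums (-0.26 and -0.10), and *Ccl4* relative to the former (-0.08). Among the members 2 were past the thresholds and higher. The number was 1 with at least 10 counts in every library, with limma on log2(FPKM + 1) and on log2(FPKM + 0.1), 0 at an adjusted p under 0.05, and 1 to 3 when 1 library at a time was left out. It was 3, with *Ccl9* added, in DESeq2. Over all genes 167 were higher and 115 lower. limma on log2(FPKM + 1) gave 88 and 33, or 96 and 41 with a mean FPKM of at least 1, and log2(FPKM + 0.1) gave 216 and 216. An adjusted p under 0.05 left 5 and 0. Leaving out 1 library gave 133 to 267 and 92 to 208, with 267 higher without *Becn1*f/f library 1 and 208 lower without *Becn1*f/f library 2. The other CC genes, 0 in both directions, gave 1 higher and 1 lower with no filter (*Ackr1* and *Ccl28*), 3 and 1 with log2(FPKM + 0.1) (*Ackr1*, *Ccl19*, *Ccl20* and *Ccl22*, all with few counts), and 0 to 1 higher without 1 library. Signalling genes past the thresholds and higher (1) fell to 0 with GC and length offsets and at an adjusted p under 0.05, and were 0 to 1 without 1 library. Inducers and feedback genes (1 higher, 0 lower) gave 2 with the offsets (*Dusp1* added), 0 at an adjusted p under 0.05, and 1 to 2 higher and 0 to 2 lower without 1 library. Immediate-early genes (1 higher) gave 2 with upper-quartile scaling, with no filter and with a mean FPKM of at least 1 (*Nr4a1* added), 4 with the offsets, 0 at an adjusted p under 0.05, and 3 to 5 without 1 library. The cause of these changes was not tested.

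Libraries with the same replicate number did not deviate together throughout: the correlations of their deviations were 0.07, -0.28 and 0.20, so the numbers were not taken to pair the samples. With the replicate number as a block 180 genes were higher and 116 lower, the members past the thresholds were 3 (*Ccl9* added) and the immediate-early genes 2. With the block and the GC and length offsets the values were 184 and 94, 2 members, 0 signalling genes, 2 inducers and 5 immediate-early genes. The log2 fold change of a gene correlated with its GC content (Spearman's rho -0.34 across 11953 genes, which are not independent replicates) and no longer did with the offsets (0.02). *Ccl7* and *Ccl12* are limited by depth, and at 3 libraries a group an exact test of a single gene cannot go below 0.1.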

Other observations

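The genes whose log2 CPM followed each chemokine most closely over the 6 libraries are given with Pearson's r, as a description over 6 points that share 2 genotypes. For *Ccl2* they were *Ms4a4c* (r = 0.98) and *Ms4a4a* (r = 0.98), neighbouring members of a family of membrane proteins, of which *Ms4a4c* is on the monocyte list. In all, 14 genes had an r above 0.95 with *Ccl2*. For *Ccl7*, whose values rest on 2 to 50 counts, they were *Rilpl1* (r = 0.99) and the cation channel gene *Trpv4* (r = 0.99), among 36 genes above 0.95. For *Ccr2* they were *Wdfy2* (r = 0.99) and the monocarboxylate transporter gene *Slc16a7* (r = 0.99), among 51 genes. For *Ccl5* they were *Rmdn2* (r = 0.99) and the transcription factor gene *Foxo1* (r = 0.98), among 25 genes.

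Within a genotype the members varied to very different degrees. In *Becn1*f/f the coefficient of variation over 3 libraries was 2.91% for *Ccr2*, 11.2% for *Ccl4*, 11.3% for *Ccr1*, 32.7% for *Ccl6* and 80.1% for *Ccl7*. In the Cre-labelled libraries it was 17.1% for *Ccr2*, 2.14% for *Ccl4*, 9.23% for *Ccr1*, 15.4% for *Ccl6* and 40.4% for *Ccl7*. With 3 libraries a group these spreads are themselves imprecise, and the difference between genotypes in spread was not tested.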
